A study of Populus euphratica with 12 samples.

Results

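Recurrent sense-overlapping circRNAs were examined in leaves of *Populus euphratica*, a desert poplar. These are circular RNAs that the authors' annotation placed on an annotated transcript in the sense direction and that were found above 0 RPM in at least 2 of the 12 leaf libraries. RPM is the number of reads that cross the circle's junction, scaled to the read total of the library. The rule took 367 of the 1149 circRNAs listed in the files, and 588 further sense-overlapping circRNAs were above 0 in 1 library only. A set of 3 sense-overlapping circRNAs (circRNA_0974, circRNA_0839 and circRNA_0351) was left out by name. The RPM values themselves chose these circRNAs, so the number of libraries in which each was found is given as a description with no test.

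The libraries came from 4 groups of juvenile leaves, with 3 libraries in each. Linear leaves (Li) were from trees of 0 to 3 years, lanceolate leaves (La) from trees of 4 to 6 years, ovate leaves (Ov) from trees of 8 to 12 years and broad-ovate leaves (Bo) from trees of over 20 years. Leaf shape and tree age therefore cannot be told apart in any comparison below. The labels name no treatment, and all libraries were made from rRNA-depleted total RNA. The study calls the libraries of a group biological replicates, but whether they came from separate trees is not stated in the sources used here, so p-values measure only the spread between these libraries.

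A circRNA is formed by back-splicing, in which the spliceosome joins the end of a downstream exon to the start of an exon upstream of it. The closed loop has no free ends and is resistant to the exonucleases that degrade linear RNA, and the same pre-mRNA gives rise to the linear mRNA of the host gene. In animals some circRNAs bind miRNAs or proteins, while for most plant circRNAs the function is not known.

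The totals behind the RPM values were alike, from 81.5 to 86.0 megareads per library. The files give no read counts. Junction reads are inferred here from the even steps between RPM values, with the lowest value in each library taken as 2 reads, and all read numbers below rest on this. A circRNA listed at 0 may have been absent, too low or not called. By this count, between 2000 and 3683 junction reads per library belonged to the recurrent sense-overlapping circRNAs, whose RPM summed to between 23.6 and 43.0 per library, with the highest sum in La3. They held 73.0 to 89.0% of the RPM other than that of circRNA_0974. The leaf origin of the RNA was checked on 8 mRNAs of photosynthesis: 6 of them were above the 97th percentile of all mRNAs by mean FPKM (fragments per kilobase of transcript, scaled to the read total), and the lowest was at the percentile 73.9. The La and Ov libraries of the same number deviated together from their group means, so they are not independent, and values from a fit with these numbers as a block are given where they change a call.

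Most of the circRNAs were found in few libraries. Of the 367 circRNAs, 145 (39.5%) were above 0 in 2 libraries, 60 in 3, 31 in 4 and 37 in 5. Another 81 were found in 6 to 11 libraries, and 13 (3.54%) were found in all 12. The circRNAs just inside the limit, in 2 libraries, had a median mean level of 0.00712 RPM, and those just outside, in 1 library, had 0.00300 RPM. Those found in all 12 libraries had a median of 0.221 RPM. By the inferred reads, 290 circRNAs reached at least 3 reads in at least 2 libraries, and 18 were never above 2 reads.

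**Figure D1:**
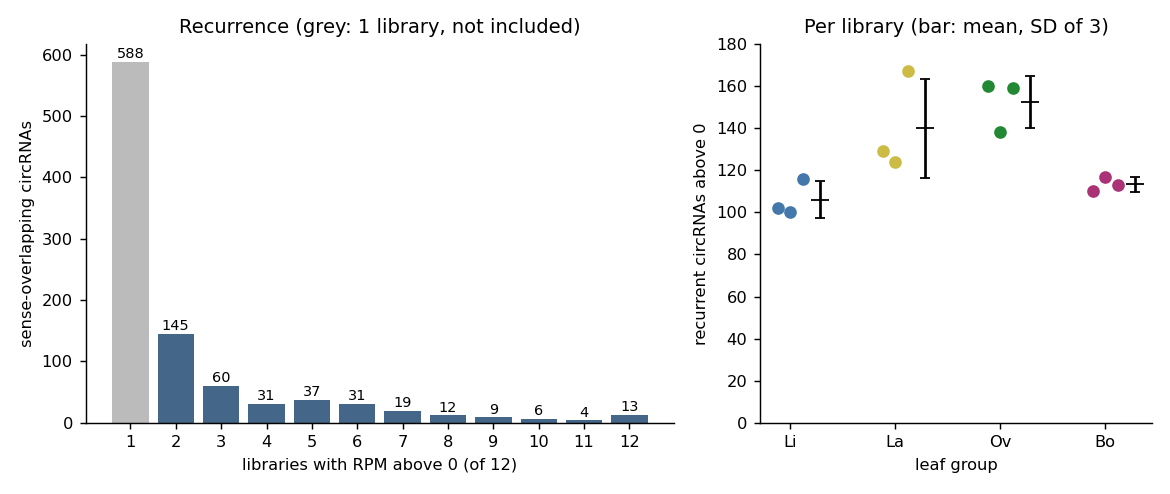
The left panel plots the number of sense-overlapping circRNAs by the number of libraries above 0 RPM (grey bar: 588 circRNAs in 1 library, not among the 367), and the right panel plots the number of the 367 circRNAs above 0 in each library by leaf group, with the mean and SD of 3 libraries. Counts fell from 145 circRNAs in 2 libraries to 4 in 11 libraries and rose to 13 in all 12, and La and Ov libraries held from 124 to 167 of them.

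By leaf group, the number found was lowest in Li and Bo. It was 102, 100 and 116 in Li1, Li2 and Li3, and 110, 117 and 113 in Bo1, Bo2 and Bo3. In La1, La2 and La3 it was 129, 124 and 167, and in Ov1, Ov2 and Ov3 it was 160, 138 and 159. All 6 La and Ov libraries thus lay above all 6 Li and Bo libraries, and the La and Ov ranges overlapped. Over circRNAs of all types the separation was not complete, with 184 in La2 against 187 in Li3 and 188 in Bo2. The recurrent sense-overlapping circRNAs made up 56.8% (Ov3) to 67.4% (La2) of the circRNAs found in a library. On average 152 ± 12.4 (SD, n = 3) were found per Ov library and 140 ± 23.5 per La library, against 113 ± 3.51 per Bo library and 106 ± 8.72 per Li library. No test was made of these counts, because they also chose the circRNAs. The summed RPM was less separated: La libraries had 31.7 ± 9.84 and Ov libraries 30.1 ± 2.91, and those of Bo and Li had 27.0 ± 2.31 and 26.4 ± 2.66.

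Most of the 367 circRNAs were listed in more than 1 leaf group, which the rule favoured. It left out the 588 sense-overlapping circRNAs found in 1 library, each of them in 1 group only. Above 0 in at least 1 library of all 4 groups were 96 circRNAs, in 3 groups 83, in 2 groups 152 and in 1 group 36. A total of 40 were absent from the list of every Li library but present in each of the other groups, against 26 for Bo, 9 for Ov and 8 for La. The same counts were not made over circRNAs of all types. Those were also fewer in Li (153 to 187 per library) and Bo (176 to 188) than in most La and Ov libraries (184 to 281). The order of the groups is therefore not read as particular to the recurrent circRNAs. With all 3 libraries of a group required and 0 elsewhere, only circRNA_0040, in Ov, was left. Of the 145 circRNAs found in 2 libraries, 35 had both in 1 group, which is 2.92 for each of the 12 possible pairs of libraries. This compares with 1.72 for each of the 36 pairs that shared neither group nor number, and with 6.67 for each of the 3 pairs of La and Ov libraries of the same number. The pair La3 and Ov3 held 14 of them, the most of any pair of libraries.

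The circRNAs covered long stretches of the genome. The span, which is the distance between the positions joined at the junction, had a median of 3695 bases and ranged from 229 to 99898 bases. A span of up to 1 kb was found for 97 circRNAs, of 1 to 5 kb for 110, of 5 to 20 kb for 106 and of 20 to 100 kb for 54. The authors' caller allowed spans of up to 100 kb. For comparison, the median was 1825.5 bases for sense-overlapping circRNAs in 1 library and 254.5 bases for the 88 circRNAs annotated as exonic. After introns were left out, the circles had a median length of 1015 bases, and 35 circRNAs had no intron bases to leave out.

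All 367 circRNAs lay on the strand of their host transcript, 174 on the plus and 193 on the minus strand of 194 scaffolds. Both ends were inside the host transcript for 237 circRNAs, with a median span of 1300 bases. For 121 circRNAs 1 end lay beyond the host transcript, with a median span of 14549 bases, and for 9 both ends did. When each end was looked up among annotated genes of either strand, 106 circRNAs (28.9%) had their ends in different genes, 241 in 1 gene and 19 had 1 end in no gene. A gene at an end may thus lie on the strand opposite to the circRNA. Scaffold limits among the annotated genes were inferred from gene order, so a gene of a neighbouring scaffold may have been taken in. Genes said here to be joined are those whose intervals held the ends. The 106 that joined different genes had a median span of 14493 bases and held 62.7% of the summed RPM of the recurrent circRNAs. Of 97 with a single gene at the other end, 50 joined the host to the next gene in the annotation, and of the 82 with an mRNA value at both ends 75 had at least 0.5 FPKM at each on average. At the other end 82 of the 97 genes were protein coding, 11 were pseudogenes and 4 were lncRNA genes. Whether such junctions arise from 1 RNA that reads through both genes, or from the mapping of reads between similar copies, was not tested.

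**Figure D2:**
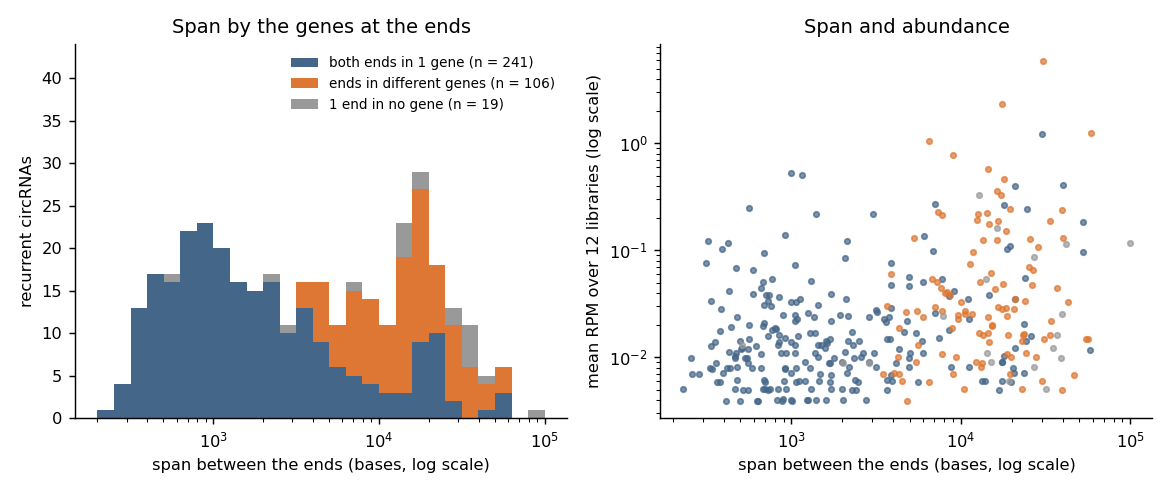
The left panel is a stacked histogram of the span (bases, log scale) of the recurrent circRNAs by the annotated genes at their ends, and the right panel plots the mean RPM over 12 libraries (log scale) against the span for each circRNA, in the same colours (the 1 circRNA with both ends in no gene is not drawn). The 241 circRNAs within 1 gene had a median span of 1369 bases and the 106 with ends in different genes one of 14493 bases, and most of the circRNAs above 0.5 RPM had ends in different genes.

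The 3 longest and the 3 shortest circRNAs were at opposite ends of the abundance scale only in part. The longest, circRNA_0871 on the minus strand of scaffold NW_011500085.1 from 72548 to 172445, spanned 99898 bases and was found in all 12 libraries, at 0.0697 to 0.209 RPM. Next came circRNA_0840 with 58755 bases, among the most abundant of all, and circRNA_1075 with 57947 bases, which was found only in La3 (0.117 RPM) and Ov3 (0.0240 RPM). The shortest were circRNA_0722 (229 bases), circRNA_0647 (256 bases) and circRNA_0081 (260 bases), each above 0 in 2 libraries. The host mRNA of circRNA_0647 was the highest of all hosts at 2667 FPKM on average, while the circRNA itself did not exceed 0.0701 RPM. Over all 367 circRNAs Spearman's rho between span and mean RPM was 0.306 across circRNAs, which share libraries and are not independent.

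Abundance was held by a few circRNAs. The most abundant, circRNA_1136, alone made up 20.5% of the summed RPM of the 367 circRNAs, the 10 most abundant 50.8% and the 100 most abundant 87.6%. Of the 10 most abundant, 7 had their ends in different genes.

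circRNA_1136 lies on the plus strand of scaffold NW_011501501.1 from 2840 to 33307, with its ends in LOC105117971, its host, and LOC105117972. Its level was 3.33, 3.68 and 5.42 RPM in Li1, Li2 and Li3, and 5.80, 6.46 and 10.3 RPM in La1, La2 and La3. In Ov1, Ov2 and Ov3 it was 6.62, 6.94 and 7.07 RPM, and in Bo1, Bo2 and Bo3 it was 4.50, 4.58 and 6.03 RPM. All La and Ov libraries were above all Li libraries, and the Bo libraries lay across the Li and La ranges. It ranked highest among the 367 circRNAs in 10 libraries, and circRNA_1134 ranked above it in Bo1 and Bo3. For La/Li the log2 difference was 0.85 (SE 0.39), which did not pass the threshold (limma, adjusted p = 0.61).

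circRNA_1134, with a mean of 2.36 RPM, was either high or not listed. It lies on the plus strand of NW_011501470.1 from 3626 to 21169 and joins LOC105117938 to LOC105117939. It was at 0 in Li1, La2, Ov1, Ov3 and Bo2. In the other libraries it was at 3.59 (Li2), 3.72 (Li3), 0.880 (La1), 6.95 (La3), 1.25 (Ov2), 5.81 (Bo1) and 6.14 RPM (Bo3). Each leaf group thus held both libraries at 0 and libraries near or above 1 RPM, and the groups overlapped. The transcript it was assigned to was at 0.140 FPKM on average, but all transcripts of the host gene summed to 151.5 FPKM, and the gene at its other end was at 99.9 FPKM. A like pattern was seen in circRNA_0840 (minus strand of NW_011500053.1, 347611 to 406365), which was at 0 in La1, La2, Ov2 and Bo3 and between 0.828 and 2.87 RPM in the 8 others.

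Of the circRNAs listed at 0 in at least 1 library, 354 in all, 32 had no value above 0 of fewer than 10 reads, so that they were either at 0 or well above the lowest level listed. These included 18 of the 103 with ends in different genes (17.5%) and 10 of the 232 with both ends in 1 gene (4.31%), and their median span was 16858 bases. The limit of 10 reads was chosen after the values were seen. No test was made of this difference, and whether the caller missed junctions in the libraries at 0 was not tested.

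Among the other abundant circRNAs, several came from hosts with a gene name. circRNA_0077 (minus strand of NW_011499847.1, 507941 to 516887) was at a mean of 0.774 RPM and was assigned to AAO2, in *Arabidopsis* an aldehyde oxidase. circRNA_0511 (minus strand of NW_011499910.1, 451134 to 452292) was at 0.503 RPM and lies within MCM9, of the minichromosome maintenance family that acts in DNA replication and repair. In Li1, Li2 and Li3 circRNA_0511 was at 0.213, 0.189 and 0.349 RPM, and in Bo1, Bo2 and Bo3 at 0.808, 1.08 and 0.368 RPM. All Bo libraries were above all Li libraries, though Bo3 only just. All La libraries (0.386 to 0.736 RPM) were above Li as well, while Ov (0.324 to 0.577 RPM) overlapped with Li. The log2 difference Bo/Li of 1.46 (SE 0.70) did not pass the threshold (limma, adjusted p = 0.616).

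circRNA_0876 (1.23 RPM), circRNA_0827 (1.05 RPM), circRNA_0801 (0.571 RPM), circRNA_0326 (0.535 RPM) and circRNA_0484 (0.466 RPM) completed the 10 most abundant. Of these, circRNA_0326 is the only short one, with a span of 995 bases within LOC105126711. It was at 0 in La3 and Ov3 and between 0.343 and 0.930 RPM in the 10 other libraries. circRNA_0827 had the smallest ratio of highest to lowest value among the 10, from 0.590 RPM in Li2 to 1.5 RPM in Ov2, with Ov libraries above all La and Li libraries.

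**Figure D3:**
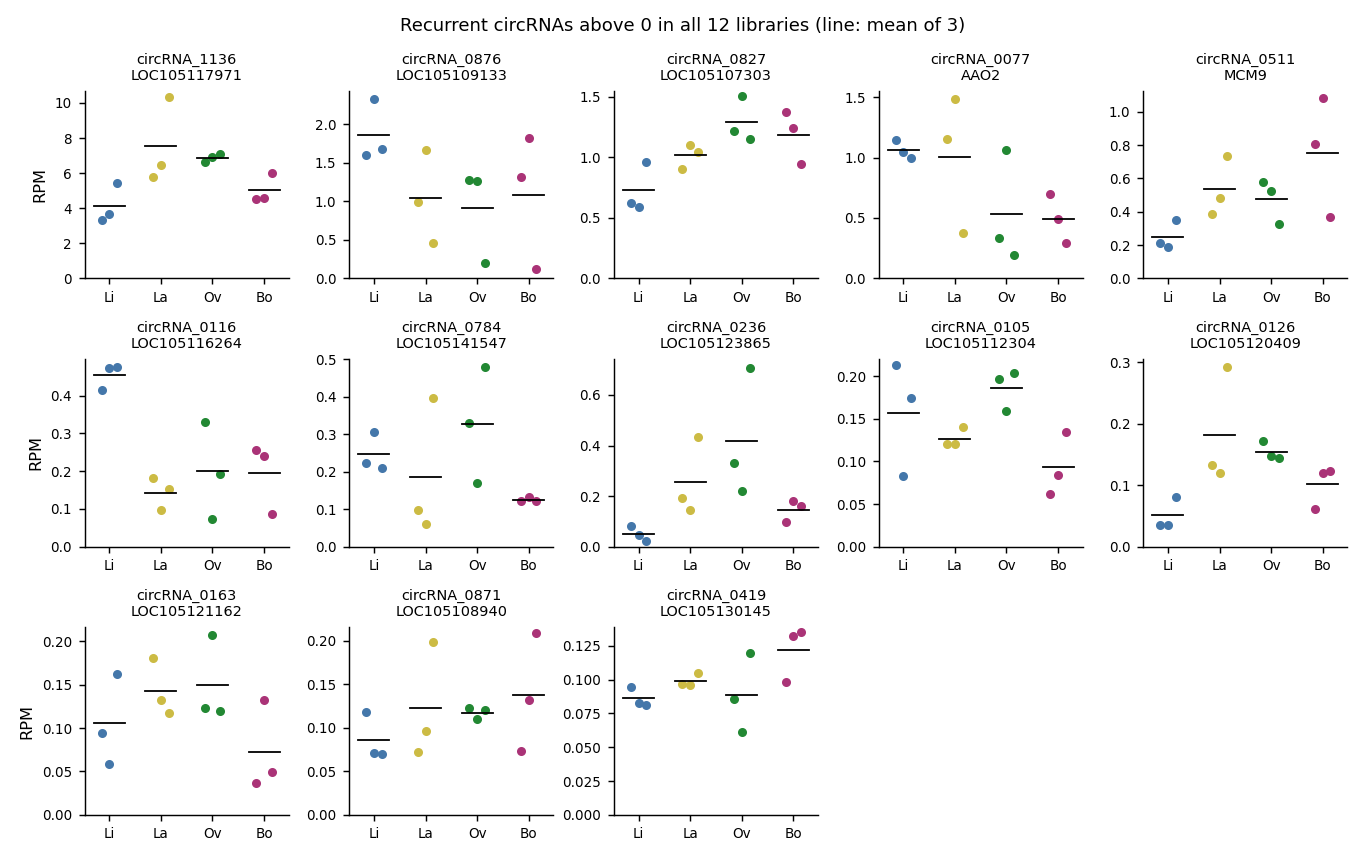
Each panel plots the RPM of 1 of the 13 circRNAs above 0 in all 12 libraries, with a point for each library, the leaf group on the x axis and a line at the mean of 3 libraries (the y axis starts at 0 and differs between panels). circRNA_0116 was higher in Li (0.414 to 0.477 RPM) than in every other library, and circRNA_0236 was lowest in Li (0.0232 to 0.0827 RPM).

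The 13 circRNAs found in all 12 libraries did not share 1 order of leaf groups. circRNA_0116, within LOC105116264, was at 0.414, 0.472 and 0.477 RPM in Li and at 0.0733 to 0.331 RPM in the 9 other libraries, with no overlap. circRNA_0236, within LOC105123865, an E3 ubiquitin-protein ligase RKP by its product name, was at 0.0827, 0.0472 and 0.0232 RPM in Li1, Li2 and Li3. It was at 0.193, 0.144 and 0.432 RPM in La, at 0.331, 0.220 and 0.708 RPM in Ov and at 0.0979, 0.180 and 0.160 RPM in Bo. All other libraries were above the Li libraries, though Bo1 only just above Li1, and Ov was above Bo. Li3 was at the lowest level listed in that library. The log2 difference Ov/Li was 2.74 (SE 0.85) and did not pass the threshold (limma, adjusted p = 0.279).

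circRNA_0126, within LOC105120409, was at 0.0354 to 0.0814 RPM in Li and at 0.120 to 0.292 RPM in La, without overlap. circRNA_0784 was higher in Ov (0.171 to 0.480 RPM) than in Bo (0.122 to 0.132 RPM). circRNA_0105 was higher in Ov (0.159 to 0.204 RPM) than in La (0.120 to 0.140 RPM), though Ov2 only just above La3. circRNA_0419 varied least, from 0.0611 RPM in Ov2 to 0.135 RPM in Bo3, with all La and all Bo libraries above all Li libraries in RPM. By the inferred reads, however, Li1 (0.0945 RPM), La1 (0.0964), La2 (0.0960) and Bo1 (0.0979) were equal. Their RPM differed only through the library totals, so these groups did not separate in reads. circRNA_0163 lies in a gene for an NADP-dependent glyceraldehyde-3-phosphate dehydrogenase, and its 4 groups overlapped between 0.0367 and 0.208 RPM. The same held for the longest, circRNA_0871.

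Whether any circRNA differed between leaf groups was asked with limma on log2(RPM + 0.0116) for all 244 circRNAs above 0 in at least 3 libraries, of which 222 were recurrent sense-overlapping ones. None of the 222 was called at an adjusted p under 0.05 in the F test over the 4 groups or in any of the 6 pairs, and over all 244 circRNAs the percentage called was 0 as well. At an unadjusted p under 0.05, 13 of the 222 passed the F test and 44 passed at least 1 pair, against 18 and 51 of all 244. The smallest adjusted p in limma was 0.1792 for the F test and 0.09076 for a pair. With the numbers of the La and Ov libraries as a block, 3 of the 222 were called in a pair and 1 in the F test, where 2.05% and 0.41% of all circRNAs were called. The 3 were circRNA_0040, circRNA_0349 and circRNA_1102.

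The median log2 difference over the 222 circRNAs was 0.52 for La/Li, 0.68 for Ov/Li and 0.01 for Bo/Li. Over all 244 circRNAs it was 0.49, 0.67 and 0.01, which was nearly the same, since the sense-overlapping circRNAs make up most of that table. A circRNA at 0 enters these medians through the pseudocount, and the number found per library was itself higher in La and Ov.

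circRNA_0349 had the smallest p of a pair. Its positions are 361483 and 368542 of NW_011499873.1 (minus strand), within LOC105127732, a host that it shares with circRNA_0348 and circRNA_0350. It was at 0, 0.0472 and 0.0581 RPM in Li1, Li2 and Li3, and at 0.289, 0.144 and 0.561 RPM in La1, La2 and La3. In Ov1, Ov2 and Ov3 it was at 0.638, 0.354 and 0.600 RPM, and in Bo1, Bo2 and Bo3 at 0.184, 0.132 and 0.258 RPM. All other libraries were above the Li libraries, and all Ov libraries were above the Bo libraries. The log2 difference Ov/Li was 3.86 (SE 0.91; limma, adjusted p = 0.0908), and with the La and Ov block the adjusted p in limma was 0.0433. It was also called, in limma at an adjusted p of 0.0244, when only circRNAs above 0 in at least 6 libraries were tested.

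circRNA_0040 had the smallest p in the F test (limma, adjusted p = 0.1792). It was at 0.0245, 0.0733 and 0.0240 RPM in Ov1, Ov2 and Ov3 and at 0 in the 9 other libraries, so that 2 of its 3 values were at the lowest level listed. It joins LOC105129206 to LOC105129211. For Ov/Li it was called in limma with the La and Ov block (adjusted p = 0.0433) and without Ov2 (adjusted p = 0.0117). circRNA_0826 was at 0.544, 0.826 and 0.697 RPM in Li1, Li2 and Li3, at 0.432 RPM in La3, at 0.245 RPM in Ov1 and at 0 in the 7 other libraries. Li was above all other libraries, with an adjusted p of 0.135 for Bo/Li in limma, 0.0126 when no filter was used and 0.0015 when only Li and Bo were fitted. circRNA_1102, within LOC105116366, was at 0.502, 0.276 and 1.06 RPM in Bo1, Bo2 and Bo3, at 0.552 RPM in La2, at 0.562 RPM in Ov2 and at 0 elsewhere. For Bo/Li its adjusted p was 0.336 in limma, and 0.00342 with the La and Ov block, 0.0169 with only Li and Bo fitted and 0.0278 with no filter. No fold change is given for these 3 circRNAs, because 1 group of each pair was listed at 0.

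Next in the order of the F test came circRNA_0771, circRNA_0853, circRNA_0135, circRNA_0151, circRNA_1047 and circRNA_0236, and none passed (limma, adjusted p = 0.609 for each). circRNA_0771 was not listed above 0 in Li, but was in 8 of the 9 other libraries, from 0.0489 RPM in Bo1 to 0.301 RPM in La1. It joins LOC105141016, its host, to LOC105140998. circRNA_1047 was at 0 in the 3 Bo libraries and between 0.184 and 1.26 RPM in the 3 Ov libraries. circRNA_0853, circRNA_0135 and circRNA_0151 did not exceed 0.0737 RPM in any library. circRNA_0151 lies in a gene for a calcium-transporting ATPase of the plasma membrane and was found in the 3 Bo libraries and in La3.

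Several circRNAs often came from 1 host gene. The 367 circRNAs were assigned to 309 transcripts of 301 genes: 251 genes gave 1 circRNA, 40 gave 2, 6 gave 3, 2 gave 4 and 2 gave 5. In all, 50 genes with several circRNAs accounted for 116 circRNAs (31.6%) and for 27.8% of the RPM. Grouped by transcript rather than gene, 43 hosts had several. Among the 90 pairs of circRNAs from the same gene, 33 overlapped in part, 27 shared the end at the higher coordinate, 13 shared the end at the lower coordinate, 10 were nested and 7 lay apart. For 4 pairs both ends were within 10 bases. In the 50 genes the most abundant circRNA held a median of 69.3% of the gene's circRNA RPM, and in 38 of them several were found in the same library at least in 1 case.

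LOC105109798 gave 5 circRNAs on the minus strand of NW_011500112.1. The most abundant, circRNA_0903 (106646 to 124616), held 87.4% of their RPM. It was at 0.165 RPM in Li1, 0.468 in La2, 0.503 in Ov1, 0.526 in Ov2, 0.355 in Bo1, 0.529 in Bo2 and 0.651 in Bo3, and at 0 in the other 5 libraries. circRNA_0904 shared its lower end and differed by 3 bases at the other, and was found in Ov1, Ov2 and Bo3, where circRNA_0903 was also present, at 0.0368 to 0.0489 RPM. circRNA_0900 and circRNA_0901 ended below the start of circRNA_0903, while circRNA_0902 (105764 to 123344) overlapped most of it, and none of these exceeded 0.0981 RPM.

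LOC105134771 was the assigned host of the other set of 5, circRNA_0546, circRNA_0547, circRNA_0549, circRNA_0550 and circRNA_0551, of 26961 to 41729 bases. Their ends fell on few positions: circRNA_0546 and circRNA_0550 shared the end at 70005, and the 3 others shared the end at 70551 of NW_011499918.1. All 5 extended beyond their host transcript on both sides, and its mRNA was at 0.000378 FPKM on average. Their lower ends lay in LOC105134773, those of circRNA_0550 and circRNA_0551 in LOC105134774 as well. The upper ends lay in no annotated gene, so no end lay in LOC105134771 itself. Together the 5 circRNAs were found in libraries of all 4 groups, and none exceeded 0.491 RPM.

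LOC105125895 gave 4 circRNAs. circRNA_0024 was at 1.02 RPM in Li1, 1.59 in La1, 0.711 in Ov1, 0.233 in Bo1, 0.336 in Bo2 and 0.884 in Bo3, and at 0 in the other libraries. It held 86.4% of their RPM, and circRNA_0023, with the same lower end and an upper end 26 bases away, stayed between 0.0245 and 0.0856 RPM in the 7 libraries where it was found. circRNA_0021 and circRNA_0027 were found in 2 libraries each. In LOC105127952, circRNA_0358, circRNA_0359, circRNA_0362 and circRNA_0363 shared the end at 329603 of NW_011499874.1, and the shorter ones were the more abundant. circRNA_0363 (389 bases) and circRNA_0362 (693 bases) were at means of 0.104 and 0.0948 RPM, and circRNA_0359 (2392 bases) and circRNA_0358 (3672 bases) at 0.00614 and 0.00500 RPM. Both abundant ones were highest in La3 (0.304 and 0.222 RPM) and Ov3 (0.324 and 0.336 RPM) and were at 0 in Li2 and Ov2.

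LOC105114269 and LOC105127732 gave 3 each. In LOC105114269, circRNA_1048 was found only in La2 (0.840 RPM) and Ov2 (0.782 RPM), and circRNA_1050 only in La1 (0.494 RPM) and Ov3 (0.0720 RPM), while circRNA_1047 was found in 6 libraries. In LOC105127732, circRNA_0348 and circRNA_0349 differed by 4 bases at 1 end, and circRNA_0348 was at 0.0360 to 0.0613 RPM in the 6 libraries where it was found, in each of which circRNA_0349 was higher. circRNA_0350 shared their lower end and was found in La3 and Ov2. circRNA_0351, which was left out of the set, has the same host.

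Of the 301 host genes, 35 had a gene symbol in the annotation, and 27 further ones had a product name in the study's annotation of mRNAs that it chose on these samples. The planned lists of genes by function could not be applied, because 239 host genes had neither, and no share of a function is given. The roles below are those known in *Arabidopsis*, and the genes were picked for naming after their values were seen. Among genes of chromosomes and DNA, SCC3, a cohesin subunit, gave circRNA_0665 in 7 libraries, and TTN7, known as the cohesin subunit SMC3, gave circRNA_0076 in 3. ATLIG4, the ligase that joins broken DNA ends, gave circRNA_0149 in 7 libraries, and BRCA1, of DNA repair, circRNA_0775 in 2. MSH5, which acts in meiotic recombination, gave circRNA_1103 in 6 libraries, and ESP, the separase that cleaves cohesin, circRNA_1038 in 5. These 6 did not exceed 0.0818 RPM in any library, while circRNA_0511 of MCM9 reached 1.08 RPM. circRNA_0882, assigned to a gene for a condensin subunit (LOC105109280) and with its other end in LOC105109255, reached 0.861 RPM.

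Among genes of transcription, NRPA1, the largest subunit of RNA polymerase I, gave circRNA_0206 and circRNA_0207, and NRPC2, a large subunit of RNA polymerase III, gave circRNA_0913 and circRNA_0914. circRNA_0207 was the highest of these 4, at up to 0.132 RPM. circRNA_0958 was assigned to LOC105111351, which encodes SC35-like, a serine/arginine-rich splicing factor. With its other end in the lncRNA gene LOC105111350, this circRNA was found in 7 libraries at up to 0.393 RPM. PTAC12, of the plastid's transcription machinery, gave circRNA_1104 and circRNA_1105, and CFM2, which acts in the splicing of chloroplast introns, circRNA_0787 and circRNA_0788. The HY5-like gene LOC105136175, related to a transcription factor of light signalling, gave circRNA_0605 in 3 libraries at up to 0.0367 RPM.

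Of genes of metabolism and transport, AAE13, a malonyl-CoA synthetase, gave circRNA_1030 in 9 libraries at up to 0.0827 RPM. NHX6, a sodium/proton exchanger of the endosomes, gave circRNA_0611 in 6 libraries at up to 0.135 RPM. KCS10, an enzyme of cuticle formation, had the highest mRNA among the hosts with 1 circRNA and a symbol, at 125 FPKM, and gave circRNA_0189 in 2 libraries. DELTA-OAT, of ornithine metabolism, gave circRNA_1019 in 4 libraries, and CYP97A3, of carotenoid synthesis, gave circRNA_1121 in 2.

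The host mRNAs were more abundant than mRNAs in general. The median over the 309 host mRNAs was 11.6 FPKM, against 1.75 FPKM over all 49676 mRNAs listed and 6.20 FPKM over the 32309 with a mean of at least 0.5 FPKM. At least 0.5 FPKM was reached by 87.7% of the hosts and 65.0% of all mRNAs. Hosts of the circRNAs found in 1 library had a median of 9.45 FPKM. Spearman's rho between mean RPM and the FPKM of the assigned host transcript was 0.085 across the 367 circRNAs. It was -0.066 across the 237 circRNAs inside their host transcript and 0.38 across the 130 that reached beyond it. These circRNAs share libraries and often hosts, so the values are descriptions.

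Host FPKM belongs to 1 transcript, and reads shared with other transcripts of the gene are divided among them. circRNA_1031, from the CIPK3 gene for a calcium-signalling protein kinase, was assigned to a transcript at 0.00846 FPKM on average, while all transcripts of the gene summed to 92.9 FPKM. For circRNA_0163 the transcript was at 0.138 FPKM and the gene at 301.7 FPKM. The host levels and rho values above are for the assigned transcript only, while for the relation over libraries the gene sum was used as an alternative.

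The next question was whether a circRNA and its host mRNA varied together over the 12 libraries. Pearson's r of log2(RPM + 0.0116) with log2(host FPKM + 1) was sought for all 101 circRNAs above 0 in at least 6 libraries with a host mRNA, and 94 of them were recurrent sense-overlapping circRNAs. By a permutation test with adjustment over those of the 101 with a defined r, 9 of the 94 were called at an adjusted p under 0.05, 8 of them positive (all 101: 11.9% called and 10.9% called positive). Shares of the 94 and the 101 count a circRNA without a defined r as not called. Before adjustment 25 of the 94 passed 0.05, 22 of them positive (all 101: 28 passed, 25 of them positive). r could not be computed for circRNA_0708, whose host mRNA was near 0 throughout, and was positive for 68 of the 93 others, with a median of 0.185. Over all 101 circRNAs r was positive for 71, with the same median. The permutations ignore the pairing of La and Ov libraries by number.

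**Figure D4:**
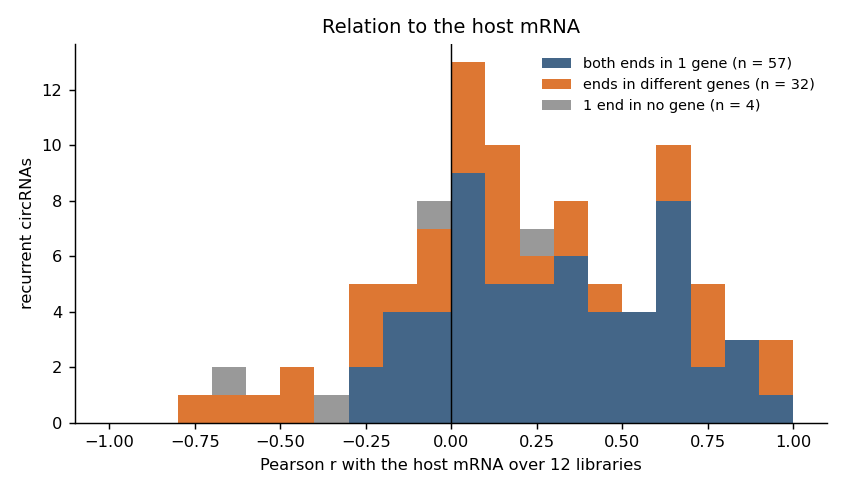
The stacked histogram plots Pearson's r between circRNA and host mRNA over 12 libraries (log2 scale) for the 93 recurrent circRNAs above 0 in at least 6 libraries for which it could be computed, by the genes at the ends. Of the 93, 68 lay above 0, and the circRNAs within 1 gene had a median r of 0.281 against 0.093 for those with ends in different genes.

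The 13 circRNAs found in all 12 libraries followed their hosts more often than not: r was positive for 12 of them, with a median of 0.665. When only the circRNAs above 0 in all 12 libraries were tested, 8 of these 13 were called, and 66.7% of all 15 such circRNAs with a host mRNA. By position, r was positive in 47 of 57 circRNAs within 1 gene and in 20 of 32 with ends in different genes. This difference was not tested.

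circRNA_0077 followed AAO2 closely. The mRNA was at 16.5, 17.4 and 14.9 FPKM in Li1, Li2 and Li3, and the circRNA at 1.15, 1.05 and 1.0 RPM. In La1, La2 and La3 the mRNA was at 19.4, 19.3 and 5.47 FPKM and the circRNA at 1.16, 1.49 and 0.374 RPM. In Ov1, Ov2 and Ov3 these were 7.60, 17.2 and 2.46 FPKM and 0.331, 1.06 and 0.192 RPM. Both were low in La3, Ov1, Ov3 and the Bo libraries, where the mRNA was at 4.76 to 8.42 FPKM and the circRNA at 0.295 to 0.698 RPM. Pearson's r was 0.964 (permutation, adjusted p = 0.00099) and Spearman's rho 0.944 (permutation, adjusted p = 0.001). Without Ov3 and Bo3, the libraries farthest from the median host level, r was 0.929, and within groups it was 0.959. The other end of circRNA_0077 lies in LOC105110914, which was at 29.1 FPKM on average, against 11.6 FPKM for AAO2. Its relation with that gene was not tested.

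circRNA_0876 gave an r of 0.952 with LOC105109133 (permutation p = 1e-05, the smallest that the permutations can give; adjusted p = 0.000495; rho = 0.937). The mRNA was at 89.9 to 97.1 FPKM in Li, and the circRNA at 1.60 to 2.32 RPM. Both were lowest in La3 (23.1 FPKM and 0.456 RPM), Ov3 (24.1 FPKM and 0.204 RPM) and Bo3 (18.7 FPKM and 0.123 RPM). Each group other than Li thus had 1 library, number 3, far below its others. Within groups r was 0.963, and it was 0.948 without La3 and Bo3.

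circRNA_1136 rose with LOC105117971 over a range of 119 FPKM in Li1 to 418 FPKM in La3, the libraries in which the circRNA was also at its lowest and highest. r was 0.937 (permutation, adjusted p = 0.00099), rho was 0.93, and r was 0.867 without Li1 and La3 and 0.884 within groups. For circRNA_0236 and LOC105123865 r was 0.867 (permutation, adjusted p = 0.00347) with rho = 0.776, and within groups 0.896. The mRNA was at 4.30 to 6.02 FPKM in Li and at 7.34 to 13.6 FPKM in the other libraries.

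circRNA_0349 and circRNA_0348 share their host LOC105127732 and 1 end, and are not independent. Their r with it was 0.864 and 0.826 (permutation, adjusted p = 0.00182 and 0.00283). The mRNA was at 0.532 to 0.707 FPKM in Li and at 1.60 to 13.2 FPKM elsewhere. Within groups r was 0.509 and 0.588, which did not pass after adjustment (permutation, adjusted p = 0.264 and 0.199). The calls of these 2 and of circRNA_0077, circRNA_0876, circRNA_1136 and circRNA_0236 held without each library in turn.

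**Figure D5:**
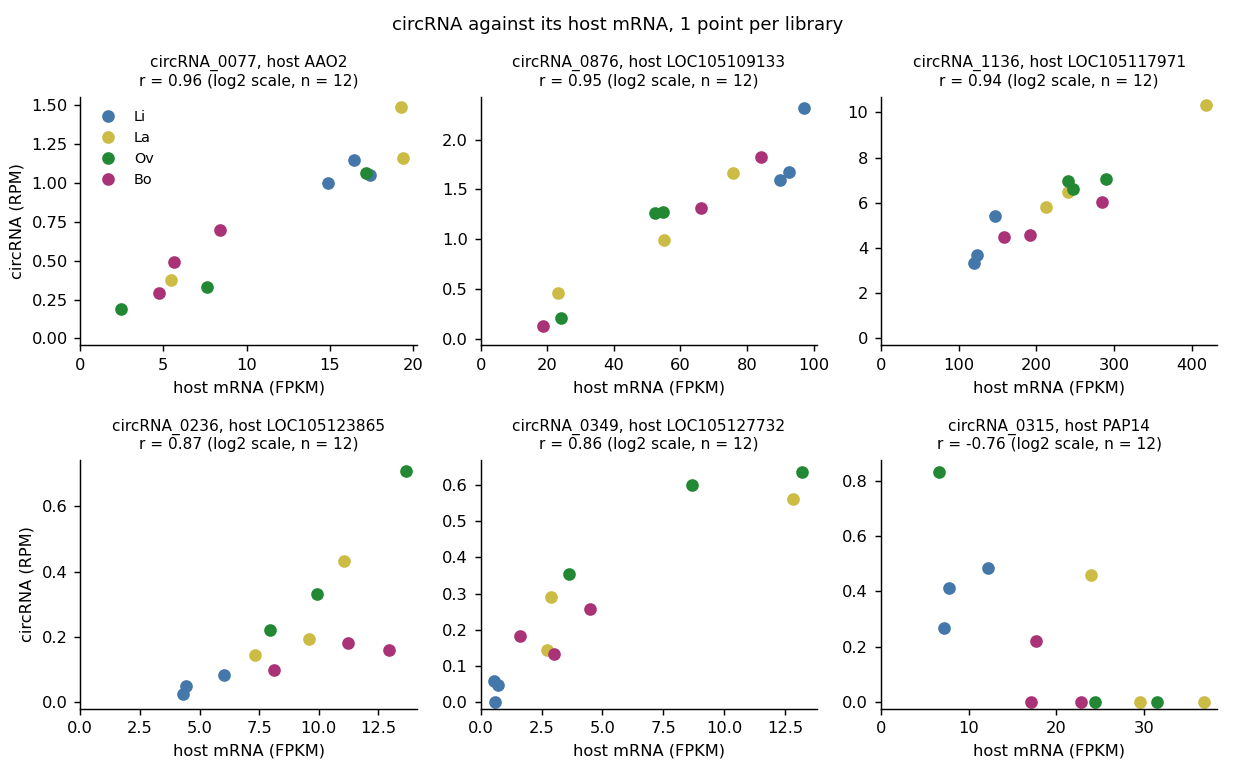
Each panel plots the RPM of a circRNA against the FPKM of its host mRNA with a point for each of the 12 libraries, coloured by leaf group, for the 5 circRNAs with the highest r and for circRNA_0315, which had the lowest. For circRNA_0077 the libraries ran from 2.46 FPKM and 0.192 RPM in Ov3 to 19.3 FPKM and 1.49 RPM in La2, and for circRNA_0315 the 6 libraries at 0 RPM were at 17.1 FPKM or more.

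The other calls were less stable. circRNA_0771 and LOC105141016 had an r of 0.786 (permutation, adjusted p = 0.0383; rho = 0.783), which was 0.552 within groups and lost the call without Li2, Li3, La1, La2, Ov2 or Ov3 (adjusted p up to 0.0865). circRNA_1020 and LOC105113095 had an r of 0.762 (permutation, adjusted p = 0.0236; rho = 0.765), which was lost without Li2, Li3 or Bo3 and was -0.0064 when the mRNA was summed over the gene. circRNA_0326 was not called by r (0.601; permutation, adjusted p = 0.15) but was by rho (0.872; permutation, adjusted p = 0.006). Its r was 0.41 without Ov3 and Bo3 and 0.128 with the mRNA summed over the gene.

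A negative relation was called for circRNA_0315, which has 1 end in the lncRNA gene LOC105126223. It was assigned to PAP14, in *Arabidopsis* a purple acid phosphatase. It was at 0.834 RPM in Ov1, 0.484 in Li1, 0.413 in Li2, 0.267 in Li3, 0.458 in La1 and 0.221 in Bo3. It was at 0 in the 6 other libraries, and the mRNA was at 17.1 to 36.9 FPKM in those. r was -0.764 (permutation, adjusted p = 0.0466) and rho -0.724 (permutation, adjusted p = 0.0714). The call was lost without any of 10 of the 12 libraries, Bo2 and La1 excepted (adjusted p up to 0.106), and r was 0.191 when the mRNA was summed over the transcripts of PAP14. Within groups r was -0.729 (permutation over all libraries, adjusted p = 0.0303, which may be too small). circRNA_0316, from the same host and with the same upper end, had an r of -0.625 and also turned positive, to 0.363. The remaining low values, -0.629 for circRNA_0319, -0.578 for circRNA_0271 and -0.444 for circRNA_0331, did not pass (permutation, adjusted p = 0.119, 0.185 and 0.421).

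Within groups, 9 of the 94 circRNAs were called (11.9% of all 101), but not the same ones. For these values the group means were taken off and the permutations then ran over all libraries, not within each group. The within-group p-values may therefore be too small, and these calls are less certain than the others. The calls of circRNA_0077, circRNA_0876, circRNA_1136, circRNA_0236 and circRNA_0315 were kept, and those of circRNA_0349, circRNA_0348, circRNA_0771 and circRNA_1020 were lost. Newly called were circRNA_0387 (r within groups 0.933, permutation, adjusted p = 0.000495), circRNA_0227 (0.804), circRNA_0998 (0.762) and circRNA_0326 (0.744). Of these, circRNA_0387, circRNA_0227 and circRNA_0998 are named after their values were seen. circRNA_0227 was at 1.42 RPM in Bo1, at 1.02 RPM in Bo2 and at no more than 0.0708 RPM elsewhere. With the mRNA summed over the gene 7 were called (9.9% of all 101).

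Whether a circRNA differed between groups beyond its host mRNA was tested on the difference between log2(RPM + 0.0116) and log2(host FPKM + 1). None of the 222 circRNAs was called in the limma F test or in a pair (0% of all 239 tested in both), and 14 and 58 passed an unadjusted p of 0.05. Since the 222 made up most of the 239, these counts are not read as particular to them. The smallest adjusted p in limma was 0.601 for the F test and 0.234 for a pair.

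Among the host mRNAs, 271 reached a mean of 0.5 FPKM, and 2 of them were called between leaf groups in limma, in the F test (0.266% of all 32309 mRNAs) and in a pair (0.73%). With the La and Ov block 36 hosts were called in a pair and 6 in the F test, where 6.82% and 1.93% of all mRNAs were. That block leaves the Li and Bo libraries unpaired.

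The mRNA of LOC105124650, a JOINTLESS-like MADS-box gene of a family of developmental transcription factors, was at 0.947, 0.387 and 1.12 FPKM in Li1, Li2 and Li3 and at 51.6, 37.4 and 25.2 FPKM in Bo1, Bo2 and Bo3. La (1.51 to 5.33 FPKM) and Ov (3.13 to 19.8 FPKM) lay between, above all Li libraries. The log2 difference Bo/Li was 4.39 (SE 0.58; limma, adjusted p = 0.00818), and without Li2 the adjusted p in limma was 0.06. Its circRNAs did not follow: circRNA_0260 was found in La3 (0.0935 RPM) and Ov3 (0.576 RPM) and circRNA_0261 in La3 (0.0351 RPM) and Bo3 (0.135 RPM).

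The mRNA of LOC105124423 was at 8.30, 4.00 and 3.98 FPKM in Li1, Li2 and Li3 and at 14.9 to 26.6 FPKM in all others, so that Li did not overlap with the rest. The log2 difference was 1.74 for Bo/Li (SE 0.27; limma, adjusted p = 0.024) and 1.69 for Ov/Li (limma, adjusted p = 0.0376). The calls of this mRNA in a pair were lost without Li2, Li3 or Bo2. circRNA_0246, with 1 end in this gene, was found in Li1, La3, Ov1 and Bo3, at 0.0354 to 0.282 RPM.

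The circRNAs most like the 3 most abundant ones over the 12 libraries were sought among the 17 found in all 12. circRNA_1136 was most like circRNA_0126 (Spearman's rho 0.902), circRNA_0236 (0.832) and circRNA_0503 (0.811). circRNA_0840 was most like circRNA_0974 (0.847), circRNA_0116 (0.794) and circRNA_0876 (0.509). For circRNA_1134 the highest rho was 0.145, with circRNA_0503.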

How the data were processed

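Strand-specific rRNA-depleted RNA from 12 leaf libraries was used. circRNA levels were deposited as RPM, which the authors obtained with CIRI from junction reads scaled to the read total, and mRNA levels were deposited as FPKM, which the authors obtained with Bowtie2 and eXpress on the PopEup_1.0 transcripts. FPKM takes in reads from linear and circular molecules. Within each library all RPM values were spaced at steps of 0.5 times the lowest one, so the lowest was taken as 2 junction reads, an inference on which no test rests. The read depth behind FPKM is unknown. Groups and numbers came from the sample titles.

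Host genes, neighbours and symbols were taken from a RefSeq gene table of a later version of the assembly through transcript accessions, which matched for all 367 circRNAs. Its symbol differed from the files for 41. An end was placed in every gene, on either strand, whose interval held it. Scaffolds were told apart among these genes only by falls in start position, so neighbouring scaffolds may have been merged. Positions of circRNAs are those of the authors' files. No genome sequence was used here, so junction sequences are not shown, and the lncRNA values were not analysed here.

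limma 3.58.1 (R 4.3.3, trend, two-sided) was fitted to log2(RPM + 0.0116), the pseudocount being the smallest RPM divided by 2, and to log2(FPKM + 1) for mRNAs with a mean of at least 0.5. Fold changes on these scales understate changes of low levels. p-values were adjusted by Benjamini-Hochberg over all RNAs tested. In relations this was over those of the 101 circRNAs with a defined value, with 100000 permutations, two-sided. For relations within groups the permutations ran over all libraries and not within each group, so those p-values may be too small. Fits and relations were tested on simulated, normally distributed values. These did not model groups wholly at 0 or the pairing of La and Ov libraries. The alternatives were each library left out, other pseudocounts, filters and scalings, a replicate block, 2 groups alone, and gene sums.

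Same-numbered La and Ov libraries deviated together, with r of 0.246, 0.641 and 0.662 over mRNAs and 0.162, 0.359 and 0.468 over circRNAs, so these numbers were taken as pairs. In no other pair of groups did all 3 values exceed 0.1.

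The circRNAs named were those in all 12 libraries, the 10 most abundant, the first 10 by p of the F test, those called in a pair, those of the 6 hosts with most circRNAs, the 3 longest and the 3 shortest, those with the 5 highest and the 5 lowest r, and those with a called host mRNA. Others are named as chosen after their values were seen. The circRNAs and lists were chosen with earlier results of these data known. None of the 6 transcripts on a fixed list of splicing factors was a host; SC35-like LOC105111351 is a host through another transcript.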

Additional observations from a re-analysis of the deposited data

How the results depend on the processing

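Of 429 recalculated values for 25 named differences and relations, 390 kept their direction and their side of the threshold, 12 passed it newly, 24 no longer passed it and 3 reversed. The reversals were in r when the host mRNA was summed over the gene: 0.191 for circRNA_0315, 0.363 for circRNA_0316 and -0.0064 for circRNA_1020. No circRNA was called between groups in the fit of all libraries, but in a pair 2 were called with no filter, 2 with only the 2 groups of a pair, 1 with circRNAs above 0 in at least 6 libraries and 3 with the replicate block in La and Ov, and in the F test 1 with that block. With 1 library left out, 0 to 2 were called in a pair and 0 to 2 in the F test (2 in both without Ov2, and 1 in a pair without Bo3). Relative to the host mRNA, 1 circRNA was called in a pair with only the 2 groups of a pair, and 0 to 1 with 1 library left out.

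Of host mRNAs, 2 were called in both tests. In a pair there were 36 with the replicate block in La and Ov and 9 with the block over all 4 groups, and in the F test 6 with the La and Ov block, 1 with no filter and 1 when scaled to the upper quartile. With 1 library left out there were 0 (Li2) to 11 (Li1 or Bo3) in a pair and 0 (Li2, Li3, La2, La3, Bo1 or Bo2) to 7 (Bo3) in the F test. These limma counts are of the recurrent circRNAs and their host mRNAs. Beyond the main fit, shares over all RNAs are given above for the La and Ov block only. The shifts are therefore not read as particular to the recurrent circRNAs. Relations called numbered 6 (without Li2) to 12 (without Bo2), against 9. Over all 101 circRNAs they numbered 9 without Li2 and 15 without Bo2, against 12. In an alternative chosen after seeing the data, 331 to 354 of the 367 circRNAs stayed above 0 in at least 2 libraries with 1 library left out. The cause of these shifts was not tested. In each library 9.58 to 21.0% of the recurrent circRNAs listed were at the lowest value, and 3 libraries a group limit the tests.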
